A study of Mus musculus with 23 samples.

Results

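Epithelial-mesenchymal transition (EMT) is the programme by which epithelial cells give up their junctions and take on a migratory, fibroblast-like state. The 10 genes described here are its best known transcription factors and the markers they control: the zinc finger repressors Zeb1, Zeb2, Snai1 and Snai2, the helix-loop-helix factors Twist1 and Twist2, the homeobox factor Prrx1, the cadherins Cdh1 and Cdh2, and the splicing regulator Esrp1. They were chosen by name, and the reads of all transcripts of each gene were summed, giving 10 of 35523 genes. The Snail and Zeb factors bind E-boxes in the Cdh1 promoter and repress it, Cdh1 (E-cadherin) joins epithelial cells to each other, and Cdh2 (N-cadherin) is the cadherin of fibroblasts and neurons. Esrp1 keeps epithelial splice forms and is itself repressed by Zeb factors. Stellate cells, the resident fibroblasts of the pancreas, are mesenchymal and carry these factors as part of their identity, whereas ductal tumour cells carry Cdh1 and Esrp1.

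The libraries were made from mouse pancreatic stellate cells (PSCs) and pancreatic tumour organoids that had shared a Matrigel co-culture in reduced (control) medium for 3.5 days before the cells were separated by flow sorting. The sorted groups were 8 libraries of Egfr KO PSCs, 4 of Egfr WT PSCs, 7 of organoids grown with KO PSCs and 4 of organoids grown with WT PSCs. Each of 4 co-cultures, T12-LOH with PSC4, T69A with PSC4, T6-LOH with PSC5 and T6-LOH with PSC4, had 1 WT library (labelled Rosa) and 2 KO clones per fraction, named A3 and B4 where the parent was PSC4, and C5 and D4 where it was PSC5. The organoids of T69A with clone A3 were not analysed here. Each KO line is thus 1 clone, and clones A3 and B4 each recur in 3 co-cultures, so that the 8 KO libraries stand for 4 clones. The labels do not say how the sort was gated or which alleles the organoid lines carry, nor whether libraries came from separate cultures, so p-values measure the spread between these libraries.

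Depth was 21823084 to 34828131 estimated counts per PSC library and 23814409 to 34643087 per organoid library. All 15 fibroblast and stellate markers averaged at least 1 CPM (read count scaled to library size) in the PSC groups, and all 15 epithelial markers did so in the organoid groups. Of 8 acinar and endocrine markers, Cpa1, Ins1 and Ins2 had 0 counts in every library, while 1 averaged at least 1 CPM in each group. The 8 summed to 9.72 to 17.9 CPM in PSC libraries and 1.54 to 7.52 CPM in organoid libraries. Egfr had 57.3 to 345 CPM in the 8 KO PSC libraries (median 113), against 278, 280, 322 and 419 CPM in the 4 WT PSC libraries. Egfr was lower in 8 of 8 KO libraries than in their co-culture's own WT library, although the groups overlapped through clone D4 at 345 CPM, and the difference did not pass the test across all genes (log2 −1.15, SE 0.34, adjusted p = 0.225, edgeR's quasi-likelihood test with Benjamini-Hochberg adjustment, as throughout). Reads from an edited allele can still be counted, and the labels do not give the edited part of the gene, so the level is only a partial check of the labels.

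Of the promoters of these genes, those of Zeb2, Snai1, Twist1, Twist2 and Prrx1 were matched by symbol in the RefSeq promoter table (GRCm38.p6). The 250 bases before the start of Snai1 and of Twist1 are shown because these 2 factors differed in organoids, where Snai1 reads were found in every library and Twist1 reads mainly in 1 line. Both are 5′ to 3′ on the plus strand, at chr2:167537945-167538194 for Snai1 and chr12:33957421-33957670 for Twist1. Capitals mark the E-box CACCTG, searched on both strands, the form bound by Snail and Zeb zinc fingers.
Snai1: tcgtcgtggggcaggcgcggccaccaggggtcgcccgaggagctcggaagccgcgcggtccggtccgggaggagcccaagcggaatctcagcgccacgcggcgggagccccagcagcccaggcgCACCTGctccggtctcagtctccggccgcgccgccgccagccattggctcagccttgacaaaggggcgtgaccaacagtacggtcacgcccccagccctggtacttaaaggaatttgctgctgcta
Twist1: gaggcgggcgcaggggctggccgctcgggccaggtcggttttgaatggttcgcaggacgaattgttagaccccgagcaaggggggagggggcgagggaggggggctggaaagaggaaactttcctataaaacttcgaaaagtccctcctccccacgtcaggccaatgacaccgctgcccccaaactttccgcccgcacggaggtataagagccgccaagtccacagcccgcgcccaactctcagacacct
The Snai1 window held 1 such E-box, its first base at −126 from the start, and the Twist1 window held none. The windows of Twist2, Prrx1 and the 4 annotated starts of Zeb2 held none either. Over all 32851 windows of the same length, 17.2% held at least 1, and the match describes letters, not binding.

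The first comparison asked how the genes divide between the sorted fractions. All 6 EMT factors of the Zeb, Snail and Twist families, Prrx1 and Cdh2 were higher in PSCs than in organoids, and Cdh1 and Esrp1 were lower, by wide margins. Across the 4 WT co-cultures, 8 of 10 genes rose and 2 fell in PSCs relative to organoids, where 56.0% of 14416 tested genes were called in either direction. Nothing is read from that count. Apart from Snai1, the PSC-enriched genes reached the minimum of the organoid filter on low counts in at most 3 of 11 organoid libraries. They entered the test through their level in PSCs and could hardly be called in the other direction, so the values below are a description. The fibroblast factor Prrx1 was 10.78 log2 units higher (SE 0.52, adjusted p = 8.77e-05), Twist2 10.77 (SE 0.41, adjusted p = 5.35e-05) and Zeb2 9.30 (SE 0.36, adjusted p = 5.36e-05). Cdh2 was 9.28 log2 units higher (SE 0.78, adjusted p = 0.000389), whereas Cdh1 was lower (log2 −9.03, SE 0.80, adjusted p = 0.000461), as was Esrp1 (log2 −9.05, SE 0.60, adjusted p = 0.000195). The smallest log2 differences among the PSC-enriched genes were those of Snai1 (6.32, SE 0.26), Snai2 (7.97, SE 1.02), Twist1 (8.06, SE 1.29) and Zeb1 (8.46, SE 0.49).

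The same division was found in the KO co-cultures, where 68.1% of 14081 genes were called and again 8 of 10 genes were higher and 2 lower in PSCs (7 libraries per fraction, the PSCs of T69A with clone A3 being left out with their organoids). For the same reason nothing is read from this count either. There the log2 differences ran from 6.47 for Snai1 (SE 0.27) to 12.13 for Prrx1 (SE 0.47), with Cdh1 at −9.03 (SE 0.42) and Esrp1 at −8.95 (SE 0.44). No gene had overlapping fractions over the 23 libraries. The narrowest gap was that of Twist1, whose lowest PSC library (49.0 CPM) was 21.9 times its highest organoid library (2.24 CPM). The widest was that of Prrx1, at 280.1 CPM in its lowest PSC library and 0.635 CPM in its highest organoid library, a ratio of 441.

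Per transcript length, Prrx1 was the highest of the 10 genes in PSCs, with a median TPM (transcript abundance scaled to length and library size) of 168 (lowest 122, highest 266, n = 12). Twist1 followed at 108 TPM (74.4 to 157), Zeb2 at 90.7 TPM (64.3 to 114), Twist2 at 88.4 TPM (61.0 to 298) and Snai1 at 62.9 TPM (34.3 to 78.8). Neighbours in that order overlapped over libraries, and Twist2 had the widest range. Cdh2 had a median of 51.0 TPM (35.9 to 79.7), Snai2 27.5 TPM (17.2 to 54.6) and Zeb1 22.2 TPM (15.3 to 29.7). Zeb1 and Zeb2, the 2 Zeb repressors, did not overlap in PSCs.

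In organoids Cdh1 had a median of 374 TPM (302 to 563, n = 11) and Esrp1 75.0 TPM (69.9 to 83.7). Esrp1 was nearly constant: in CPM it was 171 ± 4.27 in organoids with KO PSCs (SD, n = 7) and 172 ± 4.87 in organoids with WT PSCs (SD, n = 4). Snai1 was the highest of the other genes, with a median of 0.617 TPM (0.377 to 0.841), and the medians of the remaining 7 genes lay at or below 0.077 TPM.

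**Figure D1:**
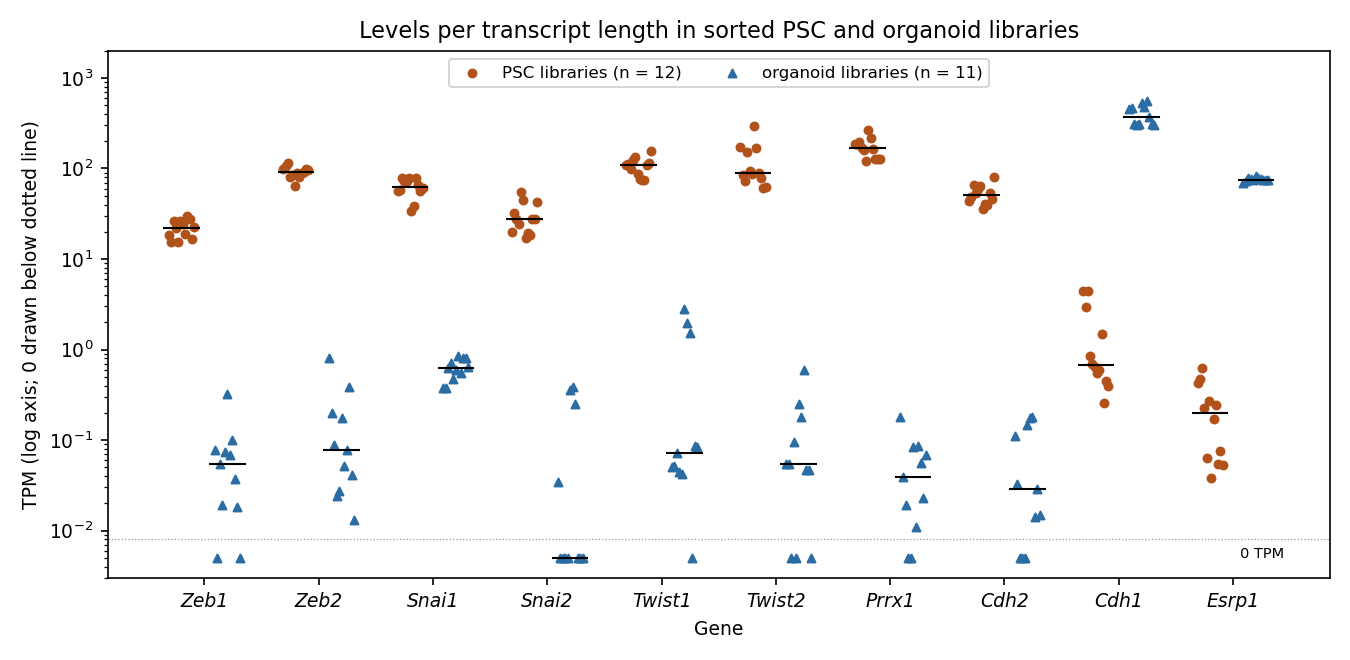
Level per transcript length (TPM, log axis) of each gene in the 12 PSC libraries (circles) and the 11 organoid libraries (triangles); horizontal bars are medians and values of 0 are drawn below the dotted line. Zeb1, Zeb2, Snai1, Snai2, Twist1, Twist2, Prrx1 and Cdh2 are higher in every PSC library than in any organoid library, Cdh1 and Esrp1 the reverse, and 3 organoid libraries stand above the others for Twist1 and Snai2.

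Genes known to act with these factors divided likewise in the WT co-cultures, and their counts are given as a description. There 56.0% of 14416 tested genes were called, 4147 as higher and 3931 as lower in PSCs. Only 16 of 24 mesenchymal effectors passed the filter on low counts within organoids, and 17 of 24 EMT-repressed genes within PSCs. The rest of these 2 lists entered the test through the other fraction and could hardly be called in the other direction. Of 24 mesenchymal EMT effectors 23 were higher and none lower in PSCs (median log2 10.1, against −0.00169 over all genes), among them the collagen cross-linking enzyme Lox (log2 10.89, SE 0.53) and the PDGF receptor Pdgfrb (log2 10.72, SE 0.31). All 24 epithelial genes of the list of EMT-repressed genes were lower, including the tight junction gene Ocln (log2 −8.26, SE 0.41) and the polarity gene Llgl2 (log2 −5.27, SE 0.13). Of 16 epithelial identity and splicing regulators 13 were lower and 3 higher, with Esrp2, the close relative of Esrp1, at log2 −7.06 (SE 0.31) and Grhl2, an activator of Cdh1, at −7.90 (SE 0.33).

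Other EMT transcription factors were more mixed, with 9 of 15 tested higher and 2 lower. The share called was 73.3% of these factors, against 56.0% of all genes. It was 88.9% of the other cadherins and 100% of the catenins and junction partners below. Snai3, another member of the Snail family, went the other way from Snai1 and Snai2 (log2 −9.55, SE 0.63), at 0.018 and 0.007 CPM in KO and WT PSCs and 8.68 and 9.12 CPM in organoids with KO and with WT PSCs. The forkhead factor Foxq1 was also lower (log2 −5.17, SE 0.24). Of 9 other cadherins tested, 4 were higher and 4 lower: Cdh11, the cadherin of fibroblasts and bone cells, was 10.49 log2 units higher (SE 0.56), and the intestinal cadherin Cdh17 was lower (log2 −7.81, SE 0.63). Of 13 catenins and junction partners 12 were lower and 1 higher in PSCs, with plakoglobin (Jup) at log2 −3.89 (SE 0.32).

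The second comparison asked whether Egfr KO PSCs differ from WT PSCs in these genes. None of the 10 passed the test, where 0.0638% of 14107 tested genes did. At an unadjusted p under 0.05 there were 2 of the 10, Twist2 and Snai2, and 1937 of the 14107 genes. DESeq2, which called 4.33% of all genes, called 1 of the 10, Twist2. The median log2 difference was 0.07 for the 10 genes and 0.00 for all genes.

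Twist2, which represses differentiation genes in mesenchymal cells, had the lowest level in KO relative to WT PSCs. In T12-LOH with PSC4, Twist2 was at 115 CPM in clone A3 and 54.3 CPM in clone B4, against 201 CPM in WT PSCs, and with T69A it was at 55.0 CPM in A3 and 43.4 CPM in B4, against 112 CPM in WT. With T6-LOH it was at 60.4 CPM in A3 and 55.8 CPM in B4, against 96.1 CPM in WT PSC4, and at 36.9 CPM in C5 and 39.4 CPM in D4, against 48.8 CPM in WT PSC5. All 8 KO libraries were thus below the WT library of their co-culture, by 0.30 to 1.88 log2 units, although the groups overlapped across co-cultures. Twist2 averaged 57.5 ± 24.7 CPM in KO PSCs (SD, n = 8) and 115 ± 63.7 CPM in WT PSCs (SD, n = 4), a log2 difference of −0.90 (SE 0.21, adjusted p = 0.148). The log2 difference for Twist2 stayed between −0.77 and −1.07 when each library was left out, its adjusted p then ran from 0.107 to 0.596, and DESeq2 gave −0.90 (adjusted p = 0.0043). With counts summed per PSC line Twist2 was at log2 −0.67 (adjusted p = 1).

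Snai2, the Slug repressor, was the other gene with a low unadjusted p. It had 18.2 to 55.7 CPM in KO PSCs (median 30.7) and 18.6, 20.8, 26.0 and 27.4 CPM in WT PSCs, and it was above its own WT library in 7 of 8 (log2 0.46, SE 0.17, adjusted p = 0.297). Clone B4 with T12-LOH was the exception, at 18.2 CPM against 18.6 CPM. Prrx1 was below its own WT library in 7 of 8, averaging 369 ± 80.5 CPM in KO PSCs and 450.4 ± 143 CPM in WT PSCs (log2 −0.27, SE 0.12, adjusted p = 0.379). Cdh2 was above its own WT library in 7 of 8, averaging 126 ± 29.7 CPM in KO PSCs and 108 ± 17.3 CPM in WT PSCs (log2 0.20, SE 0.14, adjusted p = 0.527). For none of these 3 genes were the KO libraries separated from the WT libraries.

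The Zeb repressors were at similar levels in both genotypes. Zeb2 averaged 279.5 ± 47.5 CPM in KO PSCs and 278 ± 15.2 CPM in WT PSCs (log2 −0.02, SE 0.09, adjusted p = 0.930), the smallest standard error of the 10 genes. Zeb1 averaged 51.6 ± 12.7 CPM in KO and 55.7 ± 8.03 CPM in WT PSCs (log2 −0.12, SE 0.19, adjusted p = 0.794). Snai1 (log2 0.17, SE 0.17) and Twist1 (log2 −0.02, SE 0.16) moved in both directions between co-cultures, with 5 and 3 of 8 KO libraries above their WT library. The epithelial genes Cdh1 (log2 0.15, SE 0.30) and Esrp1 (log2 0.37, SE 0.44) were far below their organoid levels in both genotypes. Cdh1 had 0.976 to 10.5 CPM in KO PSCs and 0.621 to 10.9 CPM in WT PSCs, with the highest value of each genotype in PSCs grown with T69A.

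**Figure D2:**
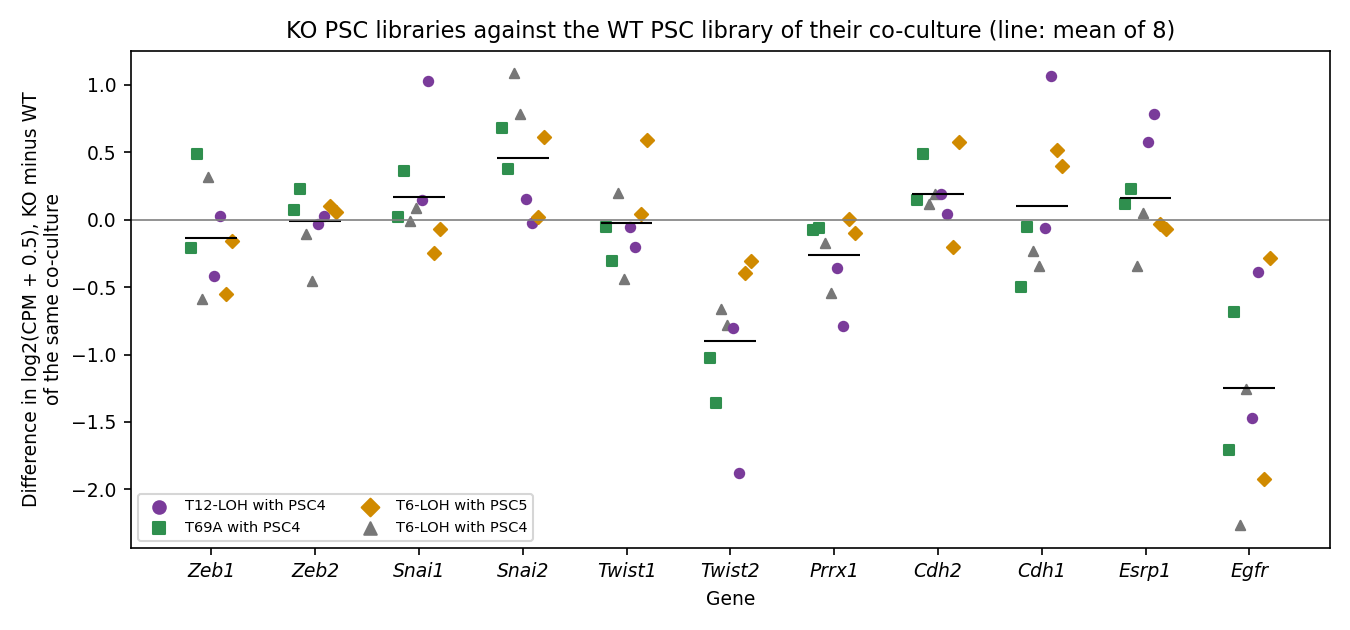
Difference in log2(CPM + 0.5) between each KO PSC library and the WT PSC library of its co-culture (8 points per gene, marked by co-culture; bar, mean of 8), with the targeted gene Egfr at the right. Twist2 lies below 0 in 8 of 8 libraries and Snai2 and Cdh2 above 0 in 7 of 8; none of the 10 genes passed the test.

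Neither did any gene of the 6 related lists pass in this comparison. Acta2 and Tagln, contractile genes of activated stellate cells, had the smallest p among 24 mesenchymal effectors, at log2 1.16 (SE 0.36, adjusted p = 0.243) and 1.37 (SE 0.48, adjusted p = 0.28). The Egfr KO effect did not differ detectably between PSC5 and PSC4 for any of the 10 genes, where 0.0% of 14107 genes were called. None of the 10 was at an unadjusted p under 0.05 there, against 683 of the 14107 genes. DESeq2 called none of the 10 and 0.645% of all genes. Those differences ran from log2 −0.78 for Esrp1 (SE 1.17) to 0.75 for Cdh1 (SE 0.71), with Twist2 at 0.72 (SE 0.47, adjusted p = 0.985).

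The transcripts of Prrx1 were looked at within PSCs because the gene makes 2 main homeobox proteins with different C-terminal ends, the 217-residue form known as Prrx1a (transcript Prrx1-202) and the 245-residue form known as Prrx1b (transcript Prrx1-201). Prrx1-202 took 31.6 and 28.3% of Prrx1 reads in KO PSCs with T12-LOH, against 36.3% in WT. It took 27.5 and 24.4% with T69A, against 30.8% in WT. With T6-LOH the share was 32.9 and 33.2% in clones of PSC4, against 41.2% in WT, and 33.3 and 29.1% in clones of PSC5, against 39.3% in WT.

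The Prrx1a share was therefore below its own WT library in 8 of 8 KO libraries, averaging 30.1 ± 3.23% in KO PSCs and 36.9 ± 4.55% in WT PSCs, a difference of −6.85 percentage points. A two-sided exact permutation test within co-cultures gave p = 0.0123, the smallest that its 81 assignments allow, and p = 0.0905 after adjustment over the 11 transcripts tested. These assignments treat the co-cultures as separate, although WT PSC4, A3 and B4 are the same lines in 3 of them. With each line keeping 1 label throughout, 9 assignments remain and the exact p was 0.111, the smallest they allow, so that the design could not reach 0.05. The Prrx1-201 share was 49.1 ± 2.57% in KO and 44.6 ± 4.01% in WT PSCs (exact p = 0.0247, adjusted p = 0.0905), and that of Prrx1-204, annotated with 200 residues, was 14.3 ± 1.05% in KO and 13.0 ± 1.34% in WT PSCs (exact p = 0.0247, adjusted p = 0.0905). Shares of the main Zeb2 and Cdh2 transcripts in PSCs, and of the main Esrp1 transcripts in organoids, gave exact p-values of 0.333 to 0.778. These transcripts overlap over most of their length, so their reads were divided by the submitters' model, and the test was added after the shares had been seen.

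**Figure D3:**
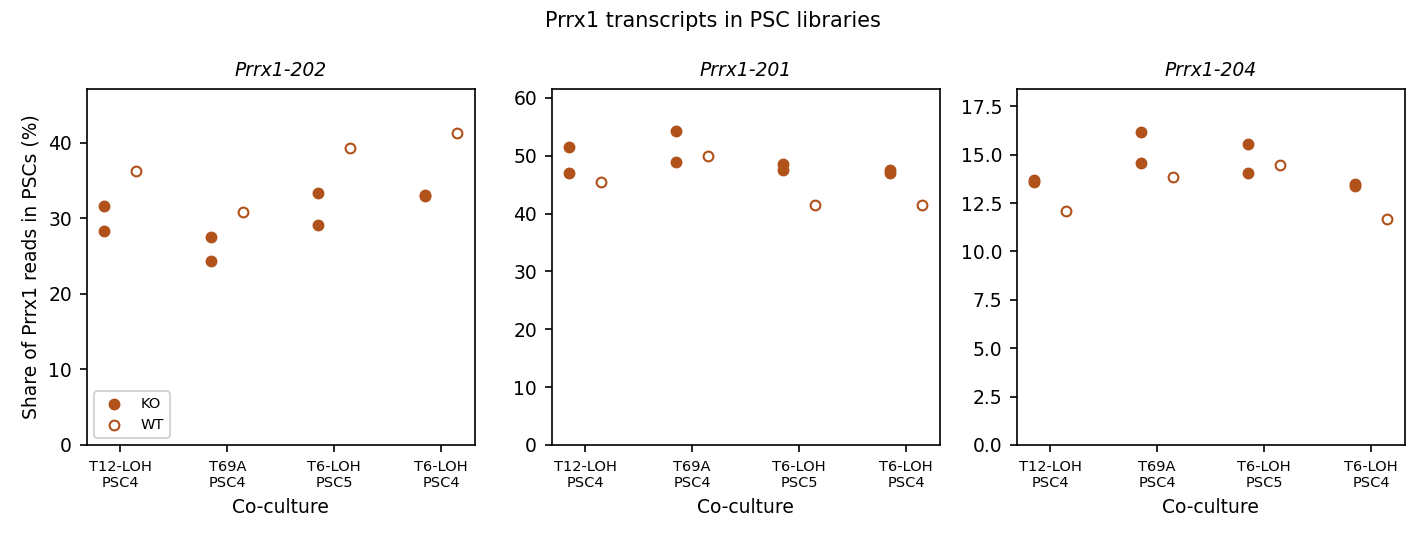
Share of Prrx1 reads assigned to 3 transcripts in PSC libraries (percent, axis from 0), with KO clones as filled points left of the WT library (open) of each co-culture. For Prrx1-202 both KO points lie below the WT point in every co-culture, while for Prrx1-201 7 of 8 KO points lie above theirs.

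The third comparison asked whether organoids grown with KO PSCs differ from those grown with WT PSCs. Only Snai1, Cdh1 and Esrp1 had enough reads in organoids to be tested, and none was called, where 10.3% of 13939 genes were. None of the 3 was at an unadjusted p under 0.05, against 4054 of the 13939 genes. DESeq2 called none of the 3 and 14.4% of all genes. Cdh1 averaged 1166 ± 334 CPM with KO PSCs (SD, n = 7) and 1236 ± 269 CPM with WT PSCs (SD, n = 4; log2 −0.07, SE 0.06, adjusted p = 0.491). Esrp1 differed by −0.01 log2 units (SE 0.04, adjusted p = 0.852). Snai1 averaged 0.598 ± 0.151 CPM with KO PSCs and 0.576 ± 0.141 CPM with WT PSCs (log2 −0.01, SE 0.26, adjusted p = 0.993).

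Zeb2 fell under the filter on low counts in that comparison. It had 4 and 6 counts in T12-LOH organoids with KO PSCs against 15 with WT PSCs, and 2 counts in T69A organoids with KO PSCs against 14 with WT PSCs. T6-LOH organoids had 3 and 1 counts with KO PSC5 against 15 with WT PSC5, and 1 and 2 counts with KO PSC4 against 5 with WT PSC4. All 7 libraries with KO PSCs were below the WT library of their co-culture, at 0.102 ± 0.0765 CPM against 0.459 ± 0.212 CPM, while the groups overlapped. With no filter, where 6.41% of 23980 genes were called, Zeb2 was called as lower (log2 −2.10, SE 0.50, adjusted p = 0.0094).

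In a fit over both fractions, which Zeb2 entered through its level in PSCs, the KO effect in PSCs minus that in organoids was 2.07 log2 units (SE 0.31, adjusted p = 0.0094, where 0.539% of 15573 genes were called), and 1.80 (adjusted p = 0.0688) without the WT library of T6-LOH organoids with PSC5. Its organoid side rests on the counts above, which did not pass the filter among organoids, so the value is given as a description. The median of fibroblast and stellate markers, as a percentage of their PSC level, was also below the WT library of the co-culture in every organoid library with KO PSCs. Signs of the other PSC-enriched genes follow, most of them resting on few counts per library. Against the WT library of their co-culture, Prrx1 was lower in 6 of 7 libraries with KO PSCs and Twist1 in 5. Snai1 and Zeb1 were lower in 4 and higher in 3, Twist2 in 3 and 3, Snai2 in 2 and 1, and Cdh2 in 1 and 4. Zeb2 reads in organoids stood at 0.0119 to 0.0922% of the Zeb2 level in PSCs of the same culture with KO PSCs, and at 0.0576 to 0.212% with WT PSCs. The median of the fibroblast and stellate markers with at least 50 CPM in the PSCs of the same culture (10 to 13 per library) stood at 0 to 0.0511% with KO PSCs and 0.0295 to 0.148% with WT PSCs. The 15 markers summed to 24.2 to 100 CPM with KO PSCs and 49.9 to 107 CPM with WT PSCs, with Lum at 0 in every library with KO PSCs and Des at 0 in every library with WT PSCs. The part of PSC reads in the Zeb2 difference was not tested, and fewer cells of a type and less RNA per cell cannot be told apart in these bulk libraries.

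Of the related lists in organoids, the mesenchymal effectors had the most calls, with 9 of 16 tested lower with KO PSCs and none higher (56.2%, against 10.3% of all genes; median log2 −0.94, against −0.01 over all genes). They included the PSC marker Col1a1, at 1.36 CPM with KO and 4.81 CPM with WT PSCs (log2 −1.45, SE 0.28, adjusted p = 0.0128). The hyaluronan receptor Cd44, which the organoids themselves hold at a higher level, was also lower and had 330 ± 67.9 CPM with KO and 402 ± 37.4 CPM with WT PSCs (log2 −0.32, SE 0.07, adjusted p = 0.0167). Among 13 other EMT factors tested, the BMP target genes Id1 (log2 0.55, SE 0.07, adjusted p = 0.0026) and Id2 (log2 0.56, SE 0.10, adjusted p = 0.0115) were higher and Prrx2, the paralogue of Prrx1, was lower (log2 −0.59, SE 0.13, adjusted p = 0.0227).

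Among 16 epithelial identity and splicing regulators 3 were higher with KO PSCs and none lower (18.8%, against 10.3% of all genes). They were the intestinal factor Cdx2 (log2 0.49, SE 0.08), Hnf4a (log2 0.28, SE 0.05) and the splicing factor Mbnl1 (log2 0.29, SE 0.05). Among 24 epithelial EMT-repressed genes 2 were higher, among them Ocln (log2 0.18, SE 0.05, adjusted p = 0.0437). That share, 8.33%, lay near the 10.3% of all genes, and nothing is read from it. None of 6 other cadherins was called, Cdh17 having the smallest p (log2 0.22, SE 0.06, adjusted p = 0.0508). Of 12 catenins and junction partners, 1 was lower, plakophilin Pkp1 (log2 −0.47, SE 0.11, adjusted p = 0.0324), a share of 8.33% and likewise near that of all genes.

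The organoid lines were then compared with each other. In T12-LOH organoids relative to T6-LOH organoids, both grown with PSC4, 5 of the 8 genes that passed the filter on low counts were called as higher and none as lower, where 31.2% of 14750 genes were called as higher and 62.1% in either direction. Nothing is read from that count, because Twist1, Snai2, Cdh2 and Zeb1 passed the filter only through T12-LOH libraries (at least 0.342 CPM before TMM scaling in 2 or 3 of them and in no other organoid library) and could hardly be called in the other direction. Their counts are given as a description. Twist1 had 46, 28 and 62 counts in the 3 T12-LOH libraries (1.48, 1.20 and 2.24 CPM), against 1, 1 and 2 counts in the T6-LOH libraries with PSC4. The lines did not overlap. Pooled, Twist1 was at 1.66 CPM in T12-LOH and 0.0446 CPM in T6-LOH, a ratio of 37.2 (95% exact interval 14.2 to 139, counting error only).

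Snai2 had 14, 7 and 11 counts in T12-LOH organoids, against 0 in all 3 T6-LOH libraries with PSC4, and in the T6-LOH libraries with PSC5 it was likewise at 0. It was at least 11.7-fold higher in T12-LOH, taking 3 counts over the group as the upper limit of 0, and at least 7.37-fold to 12.8-fold when each library was left out. Cdh2 had 14, 10 and 10 counts in T12-LOH and 0 in the 3 T6-LOH libraries, at least 12.4-fold higher on the same floor, and at least 7.84-fold to 13.2-fold when each library was left out. Every T12-LOH library, with KO and with WT PSCs, held reads of all 8 PSC-enriched genes, though only 1 count of Prrx1 in that with clone A3. The T69A library with WT PSCs held reads of all 8 as well.

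Zeb2, which reached the filter's minimum in 1 library of each line, was called in the same contrast from 25 counts against 8, a ratio of 3.42 (95% exact interval 1.5 to 8.78; log2 1.85, SE 0.65, adjusted p = 0.0255), but its T12-LOH and T6-LOH libraries overlapped. The ratio was 2.07 without the T12-LOH library with WT PSCs and 5.76 without the T6-LOH library with WT PSC4. Zeb2 was not called by DESeq2 (adjusted p = 0.0849, with 59.9% of all genes called), nor without the T12-LOH library with clone B4 (adjusted p = 0.0746), the T6-LOH library with clone A3 (adjusted p = 0.0535) or the T6-LOH library with WT PSC4 (adjusted p = 0.199). Zeb1, which passed the filter only through T12-LOH libraries, is given as a description and was not called (adjusted p = 0.103). It had 27 counts against 10 (ratio 2.96, 95% exact interval 1.39 to 6.85). The ratio was 5.06 without the T6-LOH library with clone B4 and 2.25 without that with clone A3. Snai1 had 51 counts against 52 (ratio 1.07, 95% exact interval 0.715 to 1.61). Twist2 fell under the filter with 4, 10 and 5 counts in T12-LOH, against 2, 0 and 0 in T6-LOH (ratio 10.4, 95% exact interval 2.51 to 92.1). The ratio was 6.89 without the T12-LOH library with clone B4 and 6.57 without the T6-LOH library with WT PSC4, and Twist2 was at least 4.74-fold higher without the T6-LOH library with clone A3, which held both counts. With no filter, where 37.8% of 23980 genes were called in either direction, Twist2 was called as higher (adjusted p = 0.0224).

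These reads were set beside the level of the same gene in the PSCs of the same culture. Twist1 in T12-LOH organoids stood at 2.45 to 3.96% of its PSC level and Snai2 at 1.65 to 2.18%. Of 8 fibroblast markers tested among organoids, 2 were higher in T12-LOH and none lower, where 31.2% of all genes were called as higher. The median of the fibroblast markers with at least 50 CPM in the PSCs stood at 0.0187 to 0.0766% in the T12-LOH libraries and Prrx1 at 0.00641 to 0.0462%. Cdh2 (0.418 to 0.482%) and Zeb1 (0.540 to 0.592%) lay between. In T6-LOH organoids Twist1 stood at 0 to 0.0936% and Snai2 at 0, with the marker median at 0 to 0.0465%. Snai1 stood at 0.631 to 2.33% of its PSC level over all 3 organoid lines. Both endothelial markers tested, Kdr (log2 5.93, SE 0.67) and Tie1 (log2 2.84, SE 0.73), were also higher in T12-LOH than in T6-LOH. The 6 endothelial markers summed to 2.92 to 3.73 CPM in T12-LOH organoids and 0.282 to 0.530 CPM in T6-LOH organoids, with Cdh5 at 0 in T6-LOH. T69A organoids held at most 1 count of Twist1 or Snai2 per library. In T69A relative to T6-LOH, Tie1 was higher (log2 2.88, SE 0.81, adjusted p = 0.00904). Kdr was not called in T69A (adjusted p = 0.0803), where the 6 markers summed to 0.726 to 1.496 CPM. The highest fibroblast marker in every organoid library was the matrix gene Fbln2, at 1.51 to 7.19% of its PSC level. The part of reads from PSCs or other cells in these counts was not tested.

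**Figure D4:**
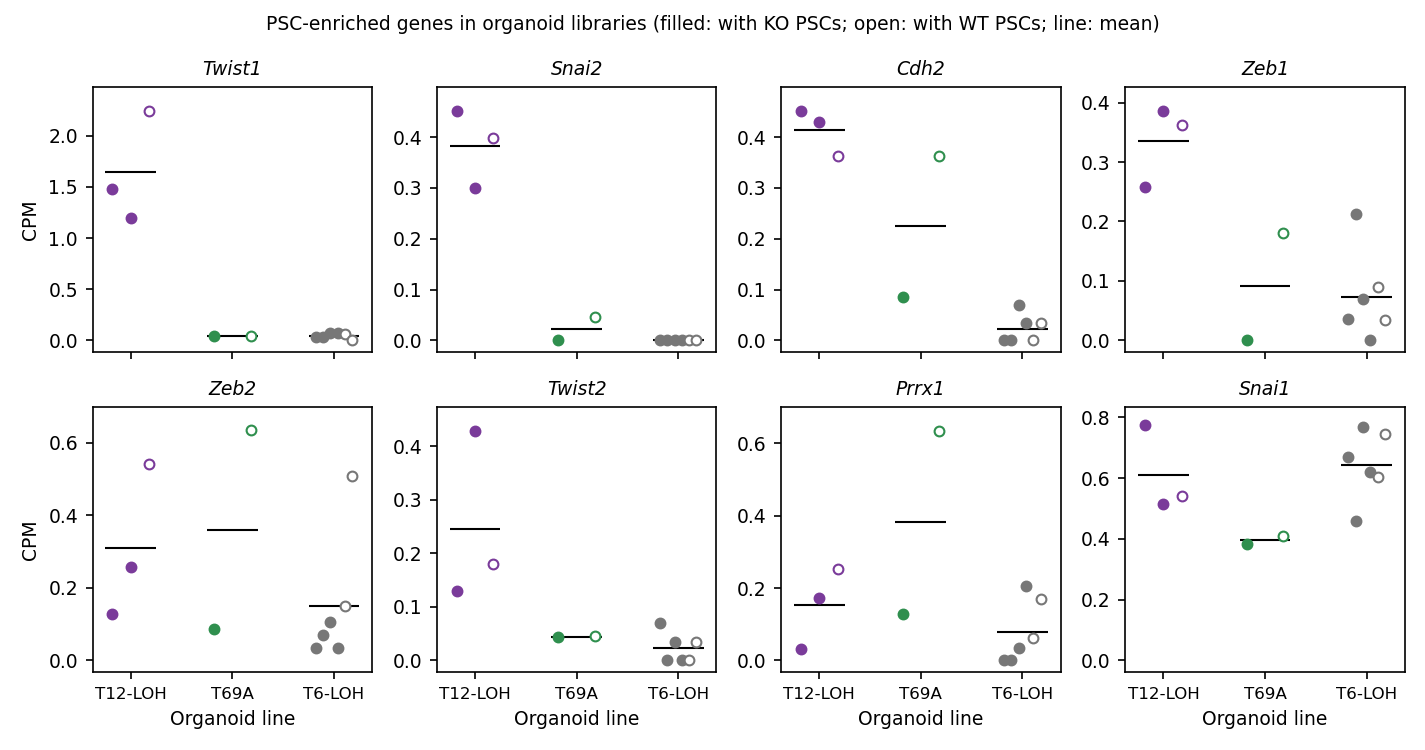
CPM of the 8 PSC-enriched genes in organoid libraries of T12-LOH (n = 3), T69A (n = 2) and T6-LOH (n = 6); filled points are organoids grown with KO PSCs, open points those grown with WT PSCs, and bars are means. Twist1 and Snai2 stand apart in the 3 T12-LOH libraries, at 1.20 to 2.24 and 0.300 to 0.451 CPM, while Snai1 overlaps between T12-LOH and T6-LOH, and open points are highest for Zeb2 within each line.

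The epithelial genes differed by line in another way. Cdh1 had 1395, 1645 and 1463 CPM in T12-LOH organoids and 1504 and 1461 CPM in T69A organoids, against 899, 914 and 931 CPM in T6-LOH organoids with PSC4. T12-LOH (log2 0.72, SE 0.08, adjusted p = 5.12e-06) and T69A (log2 0.69, SE 0.09, adjusted p = 3.02e-05) were both higher, and neither overlapped with T6-LOH. Esrp1 had no such difference, at log2 0.01 (SE 0.05) in T12-LOH and 0.01 (SE 0.06) in T69A.

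T69A relative to T6-LOH gave 2 calls among 8 genes tested, both higher, where 26.3% of 14750 genes were called as higher and 52.9% in either direction. That share lay near that of all genes, and nothing is read from it. The genes called were Cdh1 and Cdh2. Cdh2 passed the filter only through T12-LOH libraries and had 0 counts in T6-LOH with PSC4, so it could hardly be called lower. Its values are a description. It had 2 and 8 counts against 0 (at least 6.58-fold higher). Without the T69A library with WT PSCs, which held 8 of the 10 counts, it was at least 2.56-fold higher and was not called. Of 8 fibroblast markers tested among organoids, 5 were higher in T69A too. The median of the fibroblast markers with at least 50 CPM in the PSCs stood at 0.0511 to 0.148% of the PSC level. The part of PSC reads in the Cdh2 counts was not tested. Prrx1, under the filter, had 3 and 14 counts in the T69A libraries, against 0, 0 and 2 in T6-LOH (ratio 16.8, 95% exact interval 3.98 to 149.7). Without the T69A library with WT PSCs, which held the 14 counts, the ratio was 5.75 (95% exact interval 0.659 to 68.9), and without that with clone B4 it was 28.5; without the T6-LOH library with WT PSC4, Prrx1 was at least 7.06-fold higher. With no filter, where 31.2% of 23980 genes were called, Prrx1 was called as higher in T69A (adjusted p = 0.0095). Twist1 had 1 and 1 counts in T69A organoids, against 1, 1 and 2 in T6-LOH with PSC4 (ratio 0.987, 95% exact interval 0.0893 to 6.89). T6-LOH organoids with PSC5 relative to those with PSC4 gave 0 calls among 8, where 0.502% of genes were called. There Cdh2 alone of the 8 was at an unadjusted p under 0.05, against 2308 of the 14750 genes. DESeq2, which gave an adjusted p for 2 of the 8, called neither of them and 3.64% of all genes.

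In the related lists, 44.4 to 85.7% of the genes tested were called between T12-LOH and T6-LOH organoids, with 62.1% over all genes, so that several lists lay near the share of all genes. Of 18 mesenchymal effectors tested 7 were higher and 1 lower (median log2 0.64, against 0.01 over all genes), with the receptor kinase Axl at log2 2.39 (SE 0.18) and vimentin (Vim) at 3.57 (SE 0.40). Of 14 other EMT factors tested 3 were higher and 9 lower: the chromatin factor Hmga2 was higher (log2 2.60, SE 0.14), and Foxq1 (log2 −1.59, SE 0.07) and Id1 (log2 −1.43, SE 0.09) were lower. Of 24 epithelial EMT-repressed genes 6 were higher and 10 lower, with the claudin Cldn3 (log2 −1.40, SE 0.07) among those lower. Of 16 epithelial identity and splicing regulators 6 were higher and 7 lower, and Qk, an RNA-binding splicing factor, was higher (log2 2.29, SE 0.08). Of 8 other cadherins 2 were higher and 3 lower, with Cdh6 at log2 5.64 (SE 0.38), and of 12 catenins and junction partners 6 were higher and 2 lower, with beta-catenin (Ctnnb1) at −0.90 (SE 0.09).

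In PSCs, the organoid partner and the PSC parent made no difference that passed the test for any of the 10 genes. The shares of all 14405 genes called were 0.778% for T12-LOH against T6-LOH as partner, 0.0% for T69A against T6-LOH, and 0.618% for PSC5 against PSC4. With an unadjusted p under 0.05 there were 6, 4 and 3 of the 10 genes, and 1823, 1121 and 2406 of the 14405 genes. DESeq2 called 2, 2 and 0 of the 10 genes and 5.53, 1.25 and 7.47% of all genes.

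The smallest adjusted p with T12-LOH was that of Snai2. It had 20.7, 18.2 and 18.6 CPM in PSCs grown with T12-LOH, against 55.7, 45.1 and 26.0 CPM in PSC4 grown with T6-LOH, with no overlap (log2 −1.06, SE 0.22, adjusted p = 0.0637). With no filter on low counts, where 0.608% of all genes were called, the adjusted p was 0.045. Prrx1 was at 502, 372 and 643 CPM with T12-LOH, against 364, 280.1 and 409 CPM with T6-LOH (log2 0.54, SE 0.17, adjusted p = 0.178), where the groups overlapped. DESeq2 called both (Snai2 adjusted p = 0.00074, Prrx1 0.0459).

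With T69A the epithelial genes were the ones that stood out in PSC libraries. Cdh1 had 7.61, 10.5 and 10.9 CPM with T69A, against 1.77, 1.59 and 2.16 CPM with T6-LOH (log2 2.38, SE 0.41, adjusted p = 0.198; DESeq2 adjusted p = 2.1e-05), and Esrp1 had 0.887 to 1.13 CPM against 0.132 to 0.333 CPM (log2 1.9, SE 0.55, adjusted p = 0.450). Epithelial markers moved with them: their median stood at 0.692 to 0.701% of the organoid level of the same culture in the 2 PSC libraries with T69A whose organoids were analysed, and at 0.0613 to 0.229% in the 6 with T6-LOH. Cdh1 itself stood at 0.701 to 0.748% with T69A and at 0.057 to 0.232% with T6-LOH. The part of organoid reads in these values was not tested. DESeq2 also called Zeb2 higher in PSCs with T69A (log2 0.45, adjusted p = 0.0449).

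The KO clones A3 and B4 of PSC4 were grown with the same 3 organoid lines. They differed in 3 of the 10 genes, where 45.2% of 13595 genes were called. Zeb1 had 47.8, 39.1 and 36.0 CPM in A3 with T12-LOH, T69A and T6-LOH, against 65.2, 63.5 and 67.6 CPM in B4 with the same lines. A3 was lower in 3 of 3, with no overlap (log2 −0.66, SE 0.10, adjusted p = 0.0037).

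Snai2 had 20.7, 33.7 and 55.7 CPM in A3, against 18.2, 27.1 and 45.1 CPM in B4 with the same lines in that order, and Twist1 had 54.5, 76.0 and 95.5 CPM in A3, against 49.0, 63.7 and 61.0 CPM in B4. A3 was higher in 3 of 3 for both, although the clones overlapped across lines (Snai2 log2 0.29, SE 0.07, adjusted p = 0.0222; Twist1 log2 0.37, SE 0.11, adjusted p = 0.0341). Neither was called when the A3 or B4 library with T6-LOH or with T69A was left out (adjusted p 0.0745 to 0.105 for Snai2 and 0.0731 to 0.0992 for Twist1). DESeq2, which called 40.4% of all genes, called 6 of the 10, adding Snai1, Twist2 and Prrx1 to these 3, and Prrx1 was also called without either T69A library (adjusted p = 0.0309 and 0.0336). Egfr was lower in A3 than in B4 (log2 −1.02, SE 0.06, adjusted p = 0.000519).

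Related lists were called between the clones in shares of 17.6 to 64.3%, around the 45.2% of all genes. Of 9 other cadherins tested 4 were higher and 1 lower in A3, with Cdh6 at log2 4.34 (SE 0.30) and the truncated, lipid-anchored Cdh13 at 3.11 (SE 0.23). Of 14 other EMT factors tested 4 were higher and 5 lower, with Sox4 (log2 −1.49, SE 0.11) and the E-protein Tcf3 (log2 −0.73, SE 0.06), a dimer partner of Twist factors, among those lower. Of 24 mesenchymal effectors 6 were higher and 6 lower, with the fibroblast surface marker Thy1 at −4.81 (SE 0.41) and the collagen chain Col1a2 at −2.82 (SE 0.31).

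**Figure D5:**
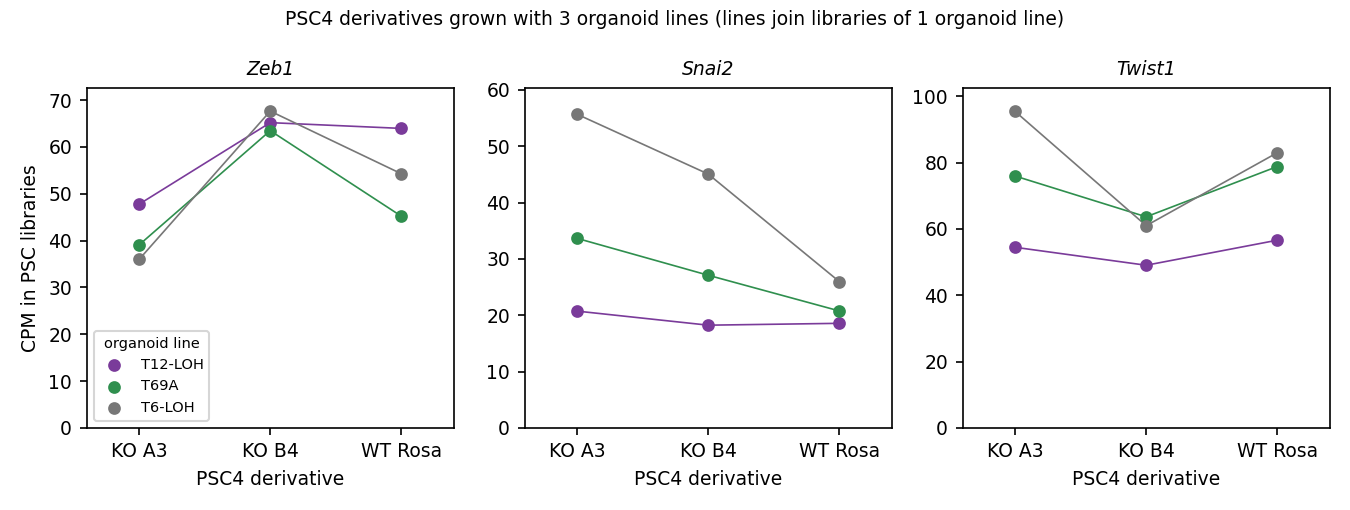
CPM of Zeb1, Snai2 and Twist1 in PSC libraries of KO clones A3 and B4 and of WT PSC4 (labelled Rosa), with lines joining libraries grown with the same organoid line (axes from 0). Zeb1 is lower in A3 than in B4 with all 3 organoid lines, and Snai2 and Twist1 are higher in A3 with all 3.

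As a description of how the genes varied, the protein-coding gene most alike in log2(CPM + 0.5) over the 12 PSC libraries was Aqp3 for Prrx1 (Pearson r = 0.956), Lxn for Twist1 (r = 0.952), Exoc4 for Cdh2 (r = 0.945) and Ccdc74a for Snai2 (r = 0.944). It was Pak4 for Twist2 (r = 0.943), Pkdcc for Snai1 (r = 0.931), Irf2 for Zeb2 (r = 0.919) and Slc25a45 for Zeb1 (r = 0.872), the weakest of the 8. The second gene for Zeb1 was Inpp5e (r = 0.867). Over the 11 organoid libraries Rnf14 was most like Cdh1 (r = 0.993) and Elof1 most like Esrp1 (r = 0.872). Each is the best of 12043 genes in PSCs or 11863 in organoids, and the libraries share co-cultures and clones.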

How the data were processed

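RNA-seq of 23 mouse libraries, 12 of sorted PSCs and 11 of sorted organoids, was used. The authors deposited an estimated (expected) count and a TPM value per transcript and library, which per the submitters' processing notes come from Salmon 1.9.0 and build GRCm39 (mm39); the sources used here do not give the library kit, strandedness or transcript annotation. Of 117135 transcripts, 115973 (99.0%) were matched by identifier to GENCODE M21, used for names only, and the rest (0.364 to 0.443% of reads) was left out. Deposited estimated counts were summed per gene and rounded, and deposited TPM were summed per gene. Genes with similar copies can share reads in such estimates.

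Tests were edgeR 4.0.16 quasi-likelihood fits (R 4.3.3, TMM normalization, filterByExpr; the culture as block between fractions, otherwise the co-culture or, between clones, the organoid line) with Benjamini-Hochberg adjustment over all genes, threshold 0.05. DESeq2 1.42.0 and limma 3.58.1 were used for alternatives. CPM values use TMM factors over all 23 libraries. Markers set beside a level are those with at least 50 CPM in the other fraction of the same culture. The fitting code was tested on simulated data. No pair of libraries agreed within sampling noise (61 pairs within groups, chi-square over degrees of freedom at least 10.9). Replicate numbers are the leading numbers of the titles and pair no libraries; the co-culture and clone in the titles pair the fractions.

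The genes and lists were chosen with earlier results of these data known. The genes named are the 10 members, up to 4 genes per related list and comparison by smallest p among those called (up to 2 where none was), the 2 genes most like each member, and cell type markers; text on a list shows some of these, and a few are not reported here. Intervals cover counting error only.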

Additional observations from a re-analysis of the deposited data

Results flagged for a closer look

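In groups of 4, 7 or 8 libraries, 1 library stood far from the rest in 4 of 40 group and gene combinations. The rule flags about 1 in 20 by chance among libraries of 1 kind. Each group mixed co-cultures and organoid lines, so that rate does not apply here. In organoids grown with WT PSCs, the T12-LOH library was far above the other 3 for Twist1 (2.24 CPM) and Snai2 (0.398 CPM), and the T12-LOH libraries with KO PSCs were likewise high. Twist2 stood apart in the T12-LOH organoids with clone B4 (0.429 CPM, 10 counts), and in the PSCs of clone A3 grown with T12-LOH (115 CPM); among WT PSCs, too, the library with T12-LOH was the highest.

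The Egfr KO effect on Zeb2 in PSCs minus that in organoids was 2.07 log2 units in the fit over both fractions. Zeb2 entered that fit through its level in PSCs and did not pass the filter among organoids, so the value is a description. It rests on 19 counts in 7 organoid libraries with KO PSCs and 49 counts in 4 with WT PSCs, in which reads of PSC markers also differed.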

How the results depend on the processing

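The counts of genes called in the 2 fraction comparisons, 10 of 10 each, were the same with DESeq2, with its size factors in edgeR, with no filter and without each library. For KO against WT PSCs, 0 became 1 with DESeq2 (Twist2). For PSCs with T12-LOH against T6-LOH, 0 became 1 with no filter (Snai2), 2 with DESeq2 (Snai2 and Prrx1), and 0 to 1 without each library (Snai1 without clone B4 with T12-LOH, adjusted p = 0.0299). For PSCs with T69A against T6-LOH, 0 became 2 with DESeq2 (Cdh1 and Zeb2). For organoids with KO against WT PSCs, 0 became 1 with no filter (Zeb2) and 0 to 1 without each library. The single call of the difference between fractions became 0 to 1 without each library, the 2 calls of T69A against T6-LOH organoids 1 to 3, the 5 of T12-LOH against T6-LOH 4 to 6, and the 3 of clone A3 against B4 became 6 with DESeq2, 4 with no filter (with Prrx1, adjusted p = 0.0462) and 1 to 3 without each library. The cause was not tested.

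Near 0, signs turned. In PSCs, KO against WT, Zeb2 was 0.0267 with counts summed per PSC line, 0.000719 in limma with the PSC line as block, and −0.0728 to 0.0774 without each library. Twist1 was 0.0315 without the T69A co-culture, 0.0793 summed, 0.0578 in limma and −0.135 to 0.048 without each library. Cdh1 was −0.103 with no co-culture block, −0.293 in limma and −0.0371 to 0.357 without each library, and Esrp1 −0.0799 to 0.671. In organoids, Snai1 was 0.000208 with no filter, 0.0496 with no block, 0.0125 without T69A and −0.101 to 0.0553 without each library, Cdh1 −0.105 to 0.0113 and Esrp1 −0.022 to 0.00155.

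The fraction comparisons were paired by culture (4 WT and 7 KO pairs) and the other comparisons were blocked by co-culture or organoid line where the design allowed; no replicate number is shared between groups. Values of PSC-enriched genes in organoids rest on a few to 62 counts per library. With 4 clones from 2 parents, repeated libraries of a clone are not independent (correlation within a PSC line 0.726 in limma). The difference of the KO effect between PSC5 and PSC4 was not run without the WT library of PSC5.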
